A study of Mus musculus with 4 samples.

Results

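Cluster 38 is a population of hindbrain neurons that the authors' annotation names after *Kcnh8* and *Maf*, and it held 183 of the 12539 neurons (1.46%) and of the 39461 nuclei kept. Its members were all nuclei that passed the authors' quality filter and carry the cluster name 38: Kcnh8/Maf in the deposited annotation. By number of nuclei it was the 6th of 134 neuronal clusters, whose median size was 86.5 nuclei and whose largest had 227. *Kcnh8* encodes a voltage-gated potassium channel of the ether-à-go-go (EAG) family. *Maf* encodes a basic leucine zipper transcription factor of the large Maf group, known in the spinal dorsal horn from interneurons of the deep laminae that receive touch input. Neurons of the caudal hindbrain that use glutamate load it into vesicles with transporters of the Slc17 family, whereas inhibitory neurons make GABA with Gad enzymes or take up glycine with Slc6a5, and which of these genes a nucleus transcribes is the usual way to sort it.

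The nuclei came from the posterior hindbrain around the area postrema and the nucleus of the solitary tract, and were profiled in 4 libraries of 10x Genomics 3′ single-nucleus RNA sequencing, 2 per group. AgRP-Gq;POMC-Gi mice carried AgRP-IRES-Cre+/- with the activating receptor hM3DGq fl/-, which Cre turns on in AgRP neurons, and POMC-Dre+/- with the inhibitory receptor hM4DGi fl/-, which Dre turns on in POMC neurons. Controls, called wildtype in the labels, had the receptor alleles hM3DGq fl/- and hM4DGi fl/- but neither recombinase (AgRP-IRES-Cre-/- and POMC-Dre-/-). Mice of both groups, of both sexes and 12 to 20 weeks old, received the receptor ligand clozapine N-oxide (CNO) intraperitoneally at 3 mg/kg and were kept without food for 1 h. The recombinases follow the *Agrp* and *Pomc* promoters, and receptor expression in hindbrain nuclei was not examined here. Samples of a condition were pooled. The sources used here do not say which mice entered which library and differ in the number of mice per group. The p-values between groups therefore measure the spread between libraries. This spread may be technical in part, and it includes the sex of the nuclei, which differed between libraries as given below.

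Libraries are listed below in the order control 1, control 2, AgRP-Gq;POMC-Gi 1 and AgRP-Gq;POMC-Gi 2. Cluster 38 held 36, 31, 31 and 85 nuclei in them, with 457979, 280701, 294356 and 854401 unique molecular identifiers (UMIs, each standing for 1 captured RNA molecule). The median nucleus had 9041 UMIs (lowest 1816, highest 35109) and 3492 detected genes, against a median of 8698 UMIs in other neurons and 2460 in oligodendrocytes. Median UMIs per nucleus were 10595, 8317, 9545 and 8904 in the 4 libraries. A total of 168 kept barcodes occurred in more than 1 library, among them those of 2 nuclei of cluster 38, and none was shared within the cluster. Levels below are counts per 1e6 UMIs (CPM): the UMIs of a gene in the nuclei of a library and population, divided by all their UMIs, given as mean ± SD of the 4 libraries. A level over a cluster does not tell apart fewer nuclei with the RNA and less RNA in each.

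The libraries differed in the sex of the nuclei that make up cluster 38. *Xist*, the RNA that coats the silenced X chromosome in females, was read in 36 of 36, 10 of 31, 11 of 31 and 0 of 85 nuclei. The Y-linked genes *Uty* or *Eif2s3y* had one in 2, 18, 21 and 78 nuclei. The nuclei of control 1 were thus nearly all of female type, those of AgRP-Gq;POMC-Gi 2 all of male type where they could be told, and those of the other 2 libraries mixed. Among other neurons *Xist* was found in 66.4%, 48.5%, 64.9% and 2.22% of nuclei and a Y-linked gene in 27.9%, 41.7%, 27.8% and 82.4%. Of the 611 neurons of control 1 with a Y-linked UMI and no *Xist* UMI 0 were in cluster 38, whereas 17 of 1074, 18 of 951 and 78 of 2991 such neurons (1.58%, 1.89% and 2.61%) in the other 3 libraries were in the cluster. A count of 3 would be 0.491% of those in control 1. Of the clusters most alike, described below, 63 and 77 also had 0 nuclei of this kind in control 1 (of 34 and 22). Cluster 140 had 3 of 10. Among neurons with *Xist* and no Y-linked UMI the cluster held 34 of 1581, 9 of 1249, 8 of 2299 and 0 of 64 (2.15%, 0.721%, 0.348% and 0%). *Ttr*, the transthyretin gene of choroid plexus, was at 2.18, 987, 6.79 and 605 CPM in cluster 38. In other neurons it was at 1.48, 1003, 7.54 and 580 CPM, so it was high in replicate 2 of both groups. Sex and library cannot be told apart in full, so the 10 genes with the smallest p between groups and *Fos* are given below also within nuclei of each type.

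The cluster's share of neurons was 1.46% in control 1 (exact 95% interval 1.02 to 2.01), 1.13% in control 2 (0.771 to 1.60), 0.839% in AgRP-Gq;POMC-Gi 1 (0.571 to 1.19) and 2.34% in AgRP-Gq;POMC-Gi 2 (1.87 to 2.88). These intervals cover counting error only. The 2 AgRP-Gq;POMC-Gi libraries held the lowest and the highest share, and the control libraries lay between them. The share was 1.30% ± 0.229 in controls and 1.59% ± 1.06 in AgRP-Gq;POMC-Gi mice (SD, n = 2 each), a difference smaller than the spread between libraries (p = 1, two-sided exact permutation test, for which 0.333 is the smallest p that 2 against 2 allows). Without AgRP-Gq;POMC-Gi 2 the difference turned to -0.457 percentage points. The 3 clusters with the most similar expression, described below, also had their highest share in AgRP-Gq;POMC-Gi 2, with 1.95%, 0.687% and 1.62% of its neurons.

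**Figure D1:**
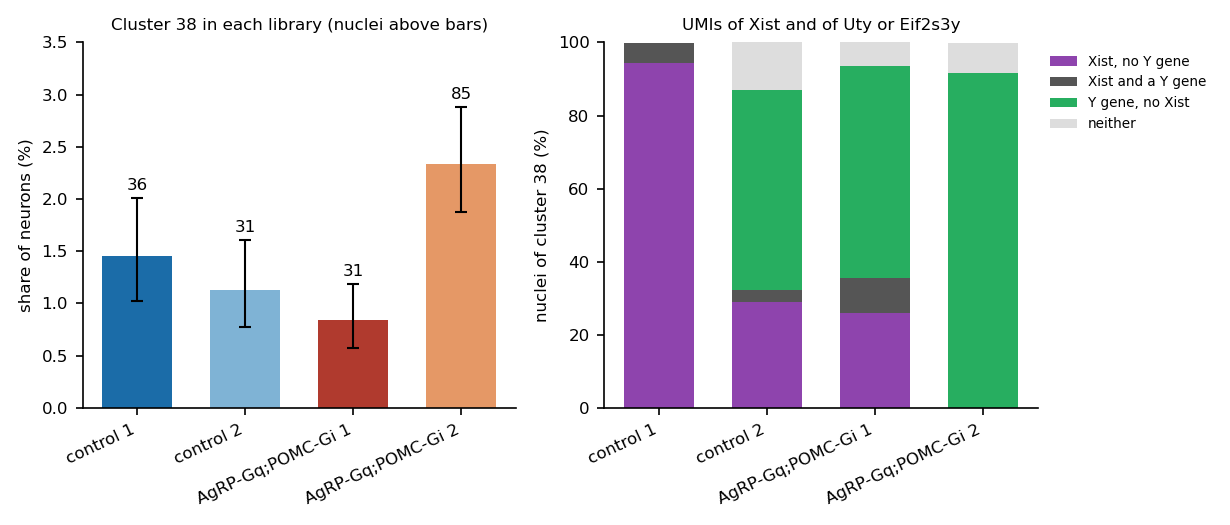
Left, share of neurons in cluster 38 (%) per library with exact 95% intervals and the number of nuclei above each bar. Right, percentage of the cluster's nuclei with a UMI of Xist only, of Uty or Eif2s3y only, of both or of neither, with Xist in all 36 nuclei of control 1 and in 0 of the 85 of AgRP-Gq;POMC-Gi 2.

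Both genes of the label marked the cluster in each library. Since the authors built clusters from expression, levels in the cluster against other neurons describe it and carry no test. *Kcnh8* (ENSMUSG00000035580, GRCm38 chr17:52602709-52979194, plus strand) was at 576, 770, 758 and 665 CPM (692 ± 90.2), compared with 63.5 in all other neurons. *Maf* (ENSMUSG00000055435, chr8:115682942-115707794, minus strand) was at 587, 620, 595 and 591 CPM (598 ± 14.7), compared with 34.6. *Maf* was higher here than in any of the other 133 neuronal clusters and varied little between libraries, whereas *Kcnh8* was higher still in clusters 146, 63 and 183 (929, 763 and 700 CPM). *Kcnh8* was read in 96.2% of the nuclei and *Maf* in 95.6%, against 18.7% and 11.8% of other neurons and 0.743% and 0.874% of oligodendrocytes, which should lack both. Both were found together in 169 of the 183 nuclei (92.3%, 95% interval 87.5 to 95.8), in 476 other neurons (3.85%) and in 0 of 16816 oligodendrocytes. The cluster therefore held 26.2% of the 645 neurons with both genes, and the next largest number, 71, were in cluster 63. A single nucleus, of control 2 and with 3270 UMIs, had neither gene, and it carried 11 UMIs of *Dpp10*, none of *Ebf1* and 16 of *Plcl1*.

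The nuclei were neurons by all 5 general markers, each read in at least 25% of them, among them the splicing factor gene *Rbfox3* (450 CPM against 253 in other neurons) and the synaptic vesicle fusion gene *Snap25* (791 against 714). Markers of other cells were low. The summed level of 7 oligodendrocyte markers was 133 to 281 CPM over the libraries (150 to 319 in other neurons), of 7 astrocyte markers 32.8 to 53.4 (59.9 to 103) and of 5 microglia markers 132 to 171 (170 to 181). That of 3 oligodendrocyte precursor markers was 0 to 14.0, with *Cspg4* at 0, and that of 4 vascular markers, *Ttr* left out, 0 to 4.68. By group, the oligodendrocyte sum was 148 and 281 in controls and 166 and 133 in AgRP-Gq;POMC-Gi mice, and the part of such RNA in any difference between groups was not tested.

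*Slc17a6*, the vesicular glutamate transporter of most brainstem excitatory neurons, was at 135, 196, 132 and 150 CPM (153 ± 29.4), against 74.8 in other neurons, a ratio of 2.04 that was 1.86 without control 2. It was read in 71.0% of the nuclei, 35.2% of other neurons and 3.49% of oligodendrocytes. By its level the cluster ranked 18th of the 111 neuronal clusters of at least 50 nuclei, to which the ranks of levels below also refer. *Slc17a8*, a second vesicular glutamate transporter, was at 10.9, 35.6, 64.5 and 12.9 CPM (31.0 ± 25.0) against 2.50, and it was read in 25 nuclei (13.7%, against 1.72% of other neurons and 0.0892% of oligodendrocytes). *Slc17a8* thus varied more than 5-fold between libraries without following the groups. *Slc17a7*, the third, averaged 0.293 CPM.

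All 6 genes of GABA and glycine transmission were below other neurons. The 4 of them found in at least 25% of other neurons were all under 0.5-fold and lower in each library, beside 6.18% of all genes so found. *Gad2*, a GABA-synthesizing enzyme, was at 13.1, 7.13, 10.2 and 11.7 CPM against 96.6, and *Slc6a5*, the neuronal glycine transporter, at 8.73 ± 5.35 CPM against 84.4. *Gad1* was at 5.44 against 51.3 and the vesicular transporter *Slc32a1* at 6.23 against 27.4. UMIs of 2 or more of *Gad1*, *Gad2*, *Slc32a1* and *Slc6a5* were found in 7 nuclei (3.83%), compared with 37.9% of other neurons, and 145 nuclei had none of the 4. The name glutamatergic therefore fits most nuclei of the cluster by these markers.

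*Th*, which encodes the first enzyme of catecholamine synthesis, was at 32.8, 28.5, 34.0 and 23.4 CPM (29.7 ± 4.78) against 2.97 in other neurons, with a UMI in 33 nuclei (18.0% against 2.03%). *Ddc*, the next enzyme, averaged 0.293 CPM, and *Dbh*, which makes noradrenaline, had no UMI in 183 nuclei, of which a count of 3 would be 1.64%. The vesicular monoamine transporter gene *Slc18a2* was at 28.2 ± 4.92 CPM against 23.0. Of the 33 nuclei with *Th*, 2 also had a UMI of *Slc17a8*. Genes of acetylcholine transmission, *Chat*, *Slc5a7* and *Slc18a3*, averaged 0.546, 2.37 and 0 CPM.

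Beyond the label, genes far above the other neurons as a whole included a second large Maf factor, signalling ligands and a potassium channel subunit. Among 5333 genes read in at least 25% of its nuclei, 253 (4.74%) were over 2-fold the level of other neurons and higher in each library. The largest ratio to all other neurons, 26.2 after adding 1 CPM to both levels, was that of *Mafa* (chr15:75745490-75748228, minus strand), at 52.4, 39.2, 71.3 and 44.5 CPM against 1.01 in other neurons. It was read in 39.3% of the nuclei and in 0.817% of other neurons. By its level cluster 38 ranked 3rd, and cluster 146 was the highest, at 65.2 CPM. *Bmp6*, a secreted bone morphogenetic protein (chr13:38345107-38500302, plus strand), was at 192, 207, 190 and 171 CPM against 10.0, the highest of the 111 clusters. *Tgfb2*, a ligand of the same superfamily, was at 129, 81.9, 129 and 93.6 CPM against 8.91 and also highest here. For both ligands the lowest library of the cluster lay far above every library of the other neurons.

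*Dpp10* (chr1:123321471-124045559, minus strand) encodes an auxiliary subunit that associates with Kv4 potassium channels and speeds their gating. It was at 24030, 27830, 26971 and 25152 CPM against 2623, so this gene alone made up over 2% of the cluster's UMIs in each library. All 183 nuclei had a UMI of it, as did 87.6% of other neurons and 4.41% of oligodendrocytes. Its level was the highest of the 111 clusters, the next being 18109 CPM in cluster 146. *Ebf1*, a helix-loop-helix transcription factor gene (chr11:44617317-45008091, plus strand), was at 3649, 4749, 4352 and 3636 CPM against 478. It was higher still in cluster 146, at 6755 CPM.

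Proteins that process or receive secreted signals were among the 20 genes with the largest ratios. *Pcsk6*, a protease that activates precursor proteins of the TGF-beta family, was at 247, 285, 296 and 342 CPM against 19.1 in other neurons. *Rxfp1*, a relaxin receptor gene, was at 67.7, 96.2, 34.0 and 78.4 CPM against 5.01 and was found in 34.4% of the nuclei. The structural and membrane genes *Pdzrn3*, a ubiquitin ligase (369 ± 60.0 against 22.7), *Sntb1*, a syntrophin of the dystrophin complex (297 ± 47.7 against 19.0), *Atp10a*, a lipid flippase (268 ± 66.3 against 25.0), and *Myo1e*, an unconventional myosin (96.1 ± 4.64 against 7.15), were likewise high in each library. *Spef2*, a gene of cilia and flagella, was at 101 ± 10.6 CPM against 3.61. *Plch2*, a phospholipase C, was at 116 ± 25.6 against 12.0, and *Kcng2*, a silent subunit of Kv channels, at 61.8 against 5.89. *Pcsk6*, *Myo1e* and *Spef2* also had a UMI in 24.5%, 28.6% and 11.1% of oligodendrocytes, and the part of RNA from those cells in their counts was not tested. The long noncoding gene *4930488N15Rik* (93.8 against 7.43) lies 87.8 kb from *Maf* on the other strand, and *Gm26911* (53.5 against 5.16) overlaps *Pdzrn3* by 21573 bases on the opposite strand. *Gm37640*, an antisense transcript, was at 35.5 against 3.29. *Sntb1* (661 CPM), *Rxfp1* (314), *Atp10a* (316), *Plch2* (156) and *Kcng2* (94.6) were higher still in cluster 146, the next most alike after the 3 compared below (r = 0.753). *Pdzrn3*, *Pcsk6*, *Gm26911* and *Gm37640* were highest in cluster 38. The order of these genes depends on the reference: against the median of the other clusters the ratio was 80.1 for *Maf*, 70.1 for *Rxfp1*, 61.5 for *Sntb1*, 58.3 for *Bmp6* and 52.9 for both *Spef2* and *Mafa*. The 20 genes stayed over 2-fold above other neurons in each of the alternatives run, which are named with the processing.

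**Figure D2:**
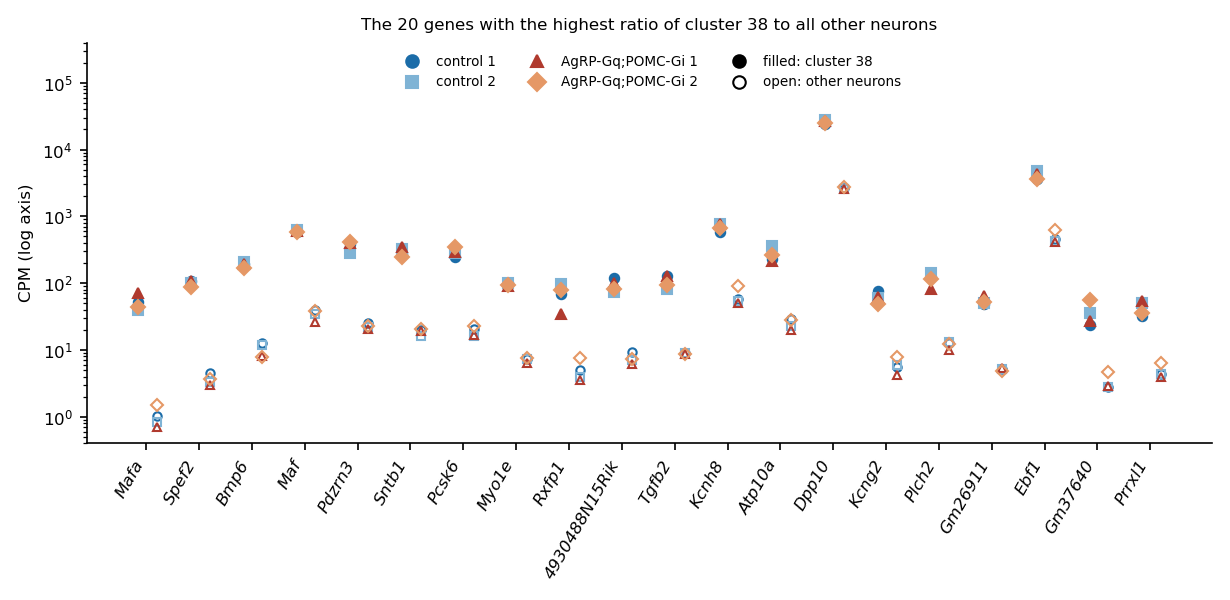
CPM (log axis) of the 20 genes with the largest ratio to other neurons, filled points for the 4 libraries of cluster 38 and open points for all other neurons. The 4 libraries of the cluster lie above those of other neurons for each of the 20 genes, from Mafa with a ratio of 26.2 to Prrxl1 with 7.58.

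Since *Ebf1* was high in the cluster, promoters of these genes were read for TCCCNNGGGA, the palindromic core bound by Ebf factors, which reads alike on both strands. Windows of 300 bases, from 250 before to 50 after a start site, were taken from the RefSeq table of GRCm38.p6, and 13 of the 20 genes had at least 1. The motif was in 2 of their 15 windows and in 297 of all 32851 (0.904%). Both windows are shown with the motif in capitals, *Myo1e* on the plus strand of chr9:70207100-70207399 and *Plch2* on the minus strand of chr4:155019379-155019678, each 5′ to 3′ along the gene.
Myo1e: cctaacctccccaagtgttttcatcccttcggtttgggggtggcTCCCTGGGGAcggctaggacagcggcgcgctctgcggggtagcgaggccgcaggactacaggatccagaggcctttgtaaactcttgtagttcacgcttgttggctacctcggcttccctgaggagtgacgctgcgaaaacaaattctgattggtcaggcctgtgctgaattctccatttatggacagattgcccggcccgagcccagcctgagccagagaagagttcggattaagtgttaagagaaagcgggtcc
Plch2: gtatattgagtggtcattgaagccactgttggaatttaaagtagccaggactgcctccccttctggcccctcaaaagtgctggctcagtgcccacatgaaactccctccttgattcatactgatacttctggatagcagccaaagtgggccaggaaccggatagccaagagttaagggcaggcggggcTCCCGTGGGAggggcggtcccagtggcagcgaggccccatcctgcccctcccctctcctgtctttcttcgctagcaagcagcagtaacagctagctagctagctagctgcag
A match of letters is a description of the window and no evidence of binding.

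Transcription factors of the dorsal excitatory lineage were present in part. *Lmx1b*, a LIM homeodomain factor of dorsal excitatory neurons, was at 50.2, 46.3, 44.2 and 55.0 CPM against 15.5 in other neurons. *Prrxl1*, a homeodomain factor of sensory relay neurons, was at 32.8, 49.9, 54.4 and 35.1 against 4.81. By its level cluster 38 ranked 9th, and cluster 63 had a higher mean (56.5 CPM) with overlapping libraries. *Lbx1*, which specifies dorsal interneurons, was at 15.2 ± 1.74 CPM against 1.70 with a UMI in 14.2% of nuclei, the third highest cluster. *Tlx3* was at 8.50 against 4.18. Of the 23 listed factors of excitatory lineages 14 had no UMI in the cluster, and of the 16 of inhibitory lineages 1 (*Gbx1*) was found in at least 5% of the nuclei. *Pax2*, a factor of inhibitory dorsal neurons, was at 5.09 CPM against 61.2.

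Of 16 factors known from the deep dorsal horn, 8 were found in at least 25% of the nuclei. Of these, 3 were over 2-fold the level of other neurons, beside 4.74% over all genes: the label gene *Maf*, *Mafa*, which had the largest ratio, and *Satb1*. Of the 7 in at least 25% of other neurons, 3 (*Bcl11a*, *Zfhx3* and *Meis2*) were under 0.5-fold, beside 6.18% over all genes. Set against the median of the other clusters instead of all other neurons, *Zfhx3* was at a ratio of 0.959 in place of 0.331. *Satb1*, a chromatin organizer, was at 284, 228, 251 and 233 CPM against 38.4, the second highest cluster. *Rora*, a nuclear receptor, had a UMI in all 183 nuclei and was at 2397 CPM against 1201. *Bcl11a* was at 12.1 CPM against 105 and *Meis2* at 32.4 against 358. Of the Maf family, *Mafg*, a small Maf without a transactivation domain, was at 89.2 CPM against 63.7, and *Nrl* had no UMI. All 3 Ebf genes found in at least 25% of the nuclei were over 2-fold. *Ebf3* was at 229 ± 35.0 CPM against 95.1. *Ebf2* was at 131, 445, 285 and 221 CPM (271 ± 132) against 67.1, lowest in control 1 and highest in control 2. Of 30 Hox genes, which mark position along the hindbrain and spinal cord, 13 had no UMI and 10 were found in at least 5% of the nuclei. Of the 4 in at least 25% of nuclei, 1 was over 2-fold, beside 4.74% over all genes. This was *Hoxb4*, at 45.9, 85.5, 40.8 and 58.5 CPM against 26.6, and without control 2 its ratio fell from 2.13 to 1.68. Cluster 63 had a higher mean of *Hoxb4* (83.0 CPM) with overlapping libraries.

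Genes of potassium channels differed from other neurons in both directions. Of the 8 EAG family genes, 3 were in at least 25% of the cluster's nuclei. All 3, the label gene *Kcnh8*, *Kcnh5* (261 ± 29.1 CPM against 116) and *Kcnh7* (1459 ± 142 against 700), were over 2-fold, beside 4.74% over all genes. Of the 3 in at least 25% of other neurons, 1, *Kcnh1* (19.8 against 77.8), was under 0.5-fold, beside 6.18%. *Kcnh3* and *Kcnh4* had no UMI. Of the 37 other potassium channel genes, 22 were in at least 25% of the cluster's nuclei and 4 of these were over 2-fold, beside 4.74% over all genes. In at least 25% of other neurons were 27, and 11 of these were under 0.5-fold, beside 6.18% (337 of 5453 genes). The lists below are counted in the same way. The 4 were *Dpp10*, *Kcnq3* of the M-current (1206 ± 53.3 against 493), the accessory subunit *Kcnab1* (600 against 265) and the silent subunit *Kcns3* (40.0 against 16.9). Among the low ones were the Kv4 pore gene *Kcnd2* (639 against 2070), *Kcnb2* (130 against 705), *Kcnq5* (73.3 against 538), *Kcnt2* (25.0 against 132) and *Kcnmb2* (10.2 against 175). Thus the Kv4 auxiliary subunit *Dpp10* was high while the Kv4 pore genes *Kcnd2* and *Kcnd3* (60.8 against 129, a ratio of 0.476 that was 0.545 without control 2) were low.

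*Kcnip4*, a calcium sensor that also joins Kv4 channels, was at 203, 28.5, 91.7 and 963 CPM against 4040, 4318, 4299 and 4073 in other neurons. It was at or below 0.25-fold in each library of the cluster, and its spread rested on few nuclei. Of its 951 UMIs 843 (88.6%) lay in 4 nuclei, 580 of them in the nucleus with the most UMIs of the cluster (35109, in AgRP-Gq;POMC-Gi 2), which also carried 17 UMIs of *Kcnh8* and 14 of *Maf*. Without these 4 nuclei the level was 72.9, 28.5, 91.7 and 52.5 CPM.

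Of 20 sodium, calcium and HCN channel genes, 1 of 16 was over 2-fold and 3 of 16 were under 0.5-fold (4.74% and 6.18% over all genes). *Cacna1a*, the pore of P/Q-type calcium channels, was over 2-fold, at 1476, 1685, 1682 and 1637 CPM against 736, the highest of the 111 clusters. *Scn3a* (49.9 against 165), *Cacna1e* (126 against 335) and *Cacna2d3* (103 against 533) were under 0.5-fold.

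Among the 17 ionotropic glutamate receptor genes, 2 of 13 were over 2-fold and 7 of 16 under 0.5-fold (4.74% and 6.18% over all genes). *Grin2a*, an NMDA receptor subunit, was at 1841, 1632, 2364 and 1910 CPM against 504, and *Gria2*, the AMPA receptor subunit that makes channels impermeable to calcium, at 2604 ± 234 against 1216. Lower were the AMPA subunits *Gria1* (92.5 against 399) and *Gria3* (145 against 467), the kainate subunits *Grik1* (51.9 against 364), *Grik2* (390 against 1530), *Grik3* (4.79 against 77.4) and *Grik4* (67.4 against 154), and *Grin2d* (17.3 against 44.7). Of the 7 metabotropic glutamate receptor genes, *Grm5* was over 2-fold (2758 ± 201 against 1296) and *Grm8* under 0.5-fold (46.7 against 497).

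Of 16 GABA-A and glycine receptor genes, 5 of 12 were over 2-fold and 2 of 13 under 0.5-fold (4.74% and 6.18% over all genes). *Gabra5*, an alpha subunit often outside synapses, was at 395, 314, 340 and 349 CPM against 66.9, and *Glra1*, the adult glycine receptor subunit, at 655, 581, 730 and 493 against 224. The cluster was the second highest for both. Also over 2-fold were *Gabra4* (105 against 24.5) and *Gabra2* (381 against 144). *Gabrg3* (104 against 810) and *Glra2* (8.51 against 52.4) were under 0.5-fold.

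**Figure D3:**
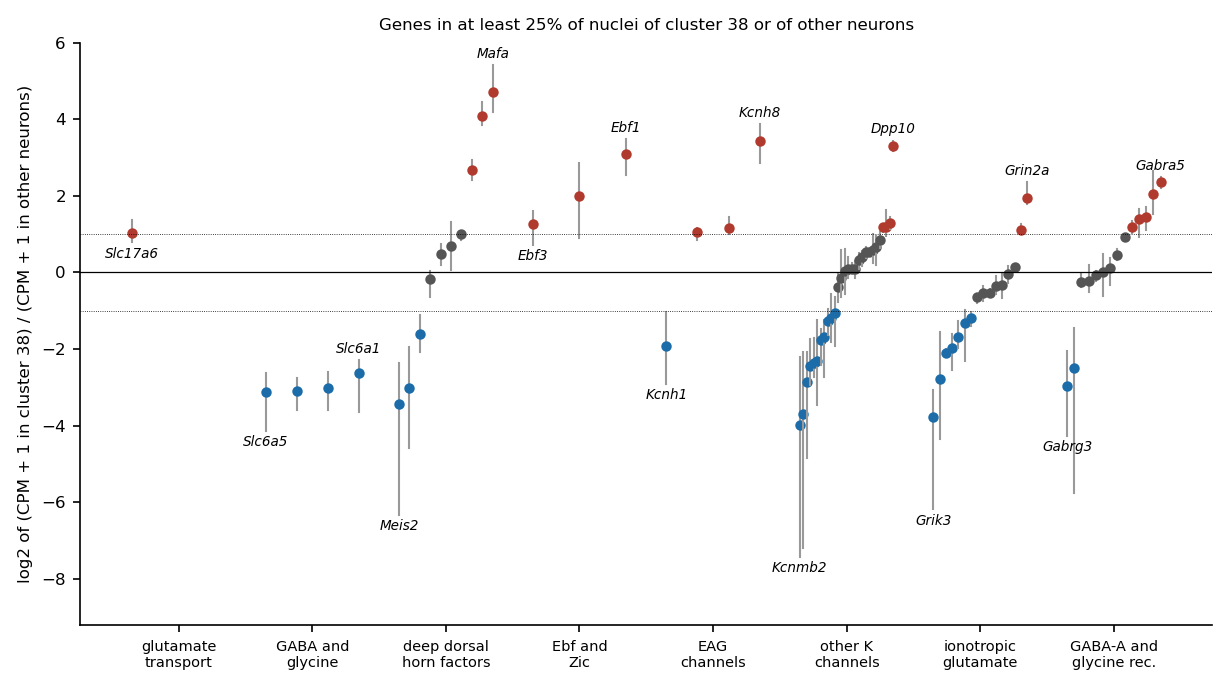
Log2 ratio of CPM + 1 in cluster 38 to that in other neurons for genes in at least 25% of nuclei of either, by gene list, with points for the mean level and lines from the lowest to the highest library. Red points are over 2-fold and blue points under 0.5-fold in the mean, with dotted lines at these bounds, and potassium channel and glutamate receptor genes lie on both sides.

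Of 30 neuropeptide genes, 11 had no UMI in the cluster and 12 were in under 5% of its nuclei. Of the 2 in at least 25% of nuclei, 1 was over 2-fold, beside 4.74% over all genes. This was *Cck* (chr9:121489824-121495694, minus strand), the cholecystokinin gene, at 48.0, 53.4, 67.9 and 87.8 CPM against 11.4, read in 41.5% of the nuclei, 7.68% of other neurons and 2.35% of oligodendrocytes. Its 2 highest values were those of the AgRP-Gq;POMC-Gi libraries, an order that 15.7% of the 11338 genes tested below had, and it was not called. *Cck* was found in 44 of the 72 nuclei with *Mafa*, and in 31 of the 63 with *Rxfp1*. *Agrp* itself was at 43.7, 74.8, 47.6 and 59.7 CPM, below the 88.5 of other neurons, and *Pomc* averaged 2.83.

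Receptors by which feeding signals reach the hindbrain were read in few nuclei. Of 27 such genes 10 had no UMI, 12 were in under 5% of the nuclei and 1 was in at least 25%, which was not over 2-fold. *Mc4r*, *Npy2r* and *Cckar* had no UMI, *Glp1r* and *Gfral* had one in 1 nucleus each, *Calcr* in 2 and *Lepr* in 6. *Npy1r*, a receptor of neuropeptide Y, was at 13.1, 21.4, 20.4 and 19.9 CPM against 7.36 with a UMI in 13.7% of nuclei, against 5.79% of other neurons and 0.232% of oligodendrocytes. *Insr*, the insulin receptor gene, was at 92.5 ± 26.8 against 124. Of 18 other peptide receptors, 4 had no UMI, 9 were in under 5% of the nuclei and 3 in at least 25%, with 0 over 2-fold. Their median ratio to other neurons was 0.636. Among those above other neurons, the mu opioid receptor gene *Oprm1* was at 146, 135, 132 and 140 CPM against 105. *Nmur2*, a neuromedin U receptor, was at 61.7 ± 8.08 against 36.4. Of 28 monoamine and acetylcholine receptors, 5 of 6 were under 0.5-fold and 0 of 2 over 2-fold (6.18% and 4.74% over all genes). The 5 were the serotonin receptors *Htr1f* (39.0 against 118), *Htr2c* (134 against 743) and *Htr4* (4.28 against 62.6) and the muscarinic receptors *Chrm2* (62.3 against 264) and *Chrm3* (54.3 against 358). Of 12 genes used to mark laminae, *Necab2*, a neuronal calcium-binding protein, was over 2-fold (50.8 against 15.7) and *Necab1* under 0.5-fold (9.77 against 93.8).

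The genes furthest below other neurons were read in few nuclei of the cluster. Of the 10 with the lowest ratio, *Rerg* was at 2.77 CPM against 70.8, *Gm28905* at 5.47 against 130, *Cadps2* at 7.30 against 147, *Col25a1* at 8.42 against 146, *Kcnmb2* as given above and *Sdk1* at 12.8 against 233. *Nkain3* was at 22.7 against 403, *Rmst* at 29.8 against 529, *Ptprt*, a receptor phosphatase, at 32.3 against 698 and *Gm32647* at 45.0 against 1102. Their UMIs were held by few nuclei, from 4 for *Kcnmb2* to 18 for *Ptprt*. Single libraries weighed on 6 of the 10 ratios. Without control 1 the ratio of *Nkain3* went from 0.0586 to 0.0197, that of *Rerg* from 0.0525 to 0.0249, that of *Sdk1* from 0.0591 to 0.0306 and that of *Gm32647* from 0.0417 to 0.0275. That of *Kcnmb2* went from 0.0637 to 0.0121 without AgRP-Gq;POMC-Gi 1 and that of *Cadps2* from 0.0560 to 0.0222 without AgRP-Gq;POMC-Gi 2.

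The 3 clusters most like cluster 38, by Pearson correlation of log2(CPM + 1) over the 2000 genes that vary most between 111 neuronal clusters of at least 50 nuclei, were cluster 63, named for *Ebf2* and *Th* (r = 0.860, 139 nuclei), cluster 140, for *Fgf10* and *Cpne4* (0.769, 61 nuclei), and cluster 77, for *Ankfn1* and *Tcerg1l* (0.755, 120 nuclei). These are correlations across genes over the same 4 libraries and describe likeness. Of the 20 leading genes, 10 were lower in every library of cluster 63 than in any of cluster 38, 1 was higher (*Spef2*, 166 ± 49.5 CPM) and 9 overlapped. In cluster 140 it was 15 lower and 5 overlapping, and in cluster 77 all 20 were lower. The 20 were chosen for high levels in cluster 38, which favours lower values elsewhere, so these counts carry no test.

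Cluster 63 had *Kcnh8* at 763 ± 92.3 CPM, overlapping cluster 38, and had less *Maf* (145, 187, 139 and 192), *Mafa* (8.17), *Bmp6* (66.4), *Pcsk6* (38.8) and *Pdzrn3* (63.1). It also had less *Cck* (19.3), *Slc17a8* (2.93), *Gria3* (16.9) and *Nfib*, a nuclear factor I gene (48.7 against 170). It had more *Th* (62.6, 112, 128 and 124 CPM, against 23.4 to 34.0 in cluster 38), *Ebf2* (965 ± 154), *Lmx1b* (89.7 ± 14.6) and *Kcnip4* (8876 ± 784), each with no overlap between libraries. *Ebf3* (312 ± 70.2) and *Kcnh7* (1977 ± 130), given above as over 2-fold in cluster 38, were also higher in cluster 63 with no overlap. Cluster 140 had *Maf* at 588, 487, 278 and 464 CPM, of which 1 library reached the lowest of cluster 38 (587) and 3 lay below it. It had little *Kcnh8* (51.4 ± 35.8) and no UMI of *Lmx1b* or *Th*. Cluster 77 had little *Maf* (29.2 ± 16.1), no *Mafa*, and *Kcnip4* at 12552 ± 753 CPM, and its *Cck* (119 ± 43.7) overlapped that of cluster 38.

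**Figure D4:**
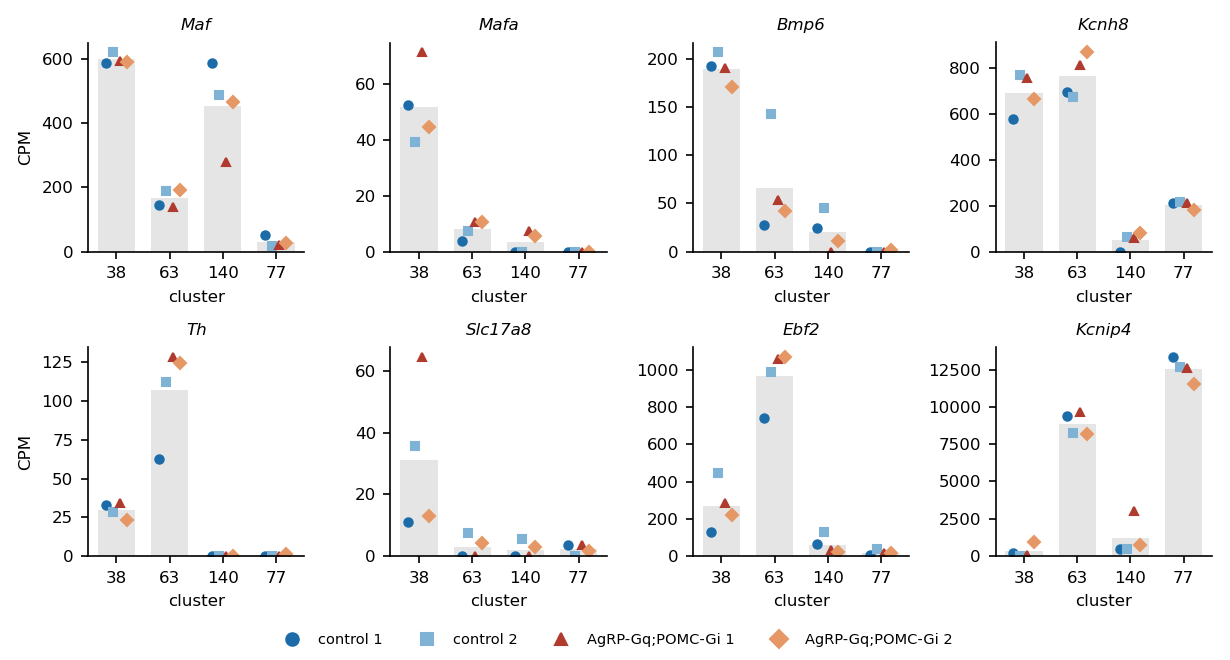
CPM of 8 genes per library in cluster 38 and in the 3 clusters most like it, with grey bars for the mean of the 4 libraries. Mafa, Bmp6 and Slc17a8 are highest in cluster 38 in each library, whereas Th and Ebf2 are highest in cluster 63.

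Within the cluster, nuclei were compared after thinning each to 3000 UMIs, which left out 2 of them. Of 7420 genes in at least 10% of the nuclei, 24 had a variance of UMIs per nucleus over 2 times the mean in all 4 libraries, and the median gene was at 0.897 in its lowest library. The 10 with the largest lowest value were *Malat1* (22.8), *Dpp10* (7.96), *Nrg1* (4.98), *Mgat4c* (4.16), *Lrrtm4* (3.48), *Hdac9* (3.32), *Adarb2* (2.92), *Nrxn3* (2.63), *Kcnd2* (2.57) and *Lsamp* (2.53). *Dpp10*, although found in every nucleus, thus spread over nuclei more than counting gives in each library, at ratios of 10.2, 9.23, 7.96 and 8.37. The measure was not adjusted for level, and *Malat1* and *Dpp10* were at 84566 and 25996 CPM. *Mgat4c*, a glycosyltransferase, was the opposite kind of gene, read in 13.1% of the nuclei. *Nrg1*, a growth factor of the neuregulin family, and the synaptic adhesion genes *Lrrtm4* and *Nrxn3* were in 88.5% of nuclei or more.

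No gene of cluster 38 differed between the groups past an adjusted p of 0.05. The question this comparison addresses is which hindbrain neurons respond to activation of AgRP neurons together with inhibition of POMC neurons. UMIs were summed per library and tested with edgeR's quasi-likelihood test over the 11338 genes read in 5% or more of the nuclei. It called 0 of them (0%), and 463 (4.08%) had an unadjusted p under 0.05, 237 (2.09%) higher and 226 (1.99%) lower in AgRP-Gq;POMC-Gi mice, while DESeq2 called 0 with 21 at an unadjusted p under 0.05. The libraries of the 2 groups did not overlap for 32.7% of the genes, 15.7% higher and 17% lower. In other neurons the same genes gave 0 calls and 612 at an unadjusted p under 0.05. The smallest adjusted p was 0.680. A test of whether the group difference itself differed between cluster 38 and other neurons called 0 genes with edgeR, with 482 (4.25%) at an unadjusted p under 0.05, 238 (2.1%) in the higher and 244 (2.15%) in the lower direction, and 0 with DESeq2, with 104.

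None of the members of the gene lists was called. Of the lists above, the most at an unadjusted p under 0.05 in 1 direction was 2 of 12 tested genes, among other activity genes. Both were higher in AgRP-Gq;POMC-Gi mice, as were 2.09% of all genes at that p. The label markers had a median log2 fold change of 0.05, the 5 general neuronal markers of -0.05, the 33 tested potassium channel genes of 0.01 and the 15 ionotropic glutamate receptor genes of 0.02, beside 0.00 over all genes. Among lists with at least 5 tested genes, the medians furthest from 0 were those of the study's IEGs (immediate early genes, 0.70 over 8 tested), the calcium-binding and laminar markers (0.69 over 6), the other activity genes (0.44 over 12), the feeding and visceral receptors (-0.44 over 5) and the oligodendrocyte markers (-0.37 over 6).

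The 10 genes with the smallest p are given as values, since none was called (edgeR, adjusted p 0.680 to 1.00). *Cep112*, a centrosomal protein gene, was at 140, 150, 289 and 272 CPM, a log2 fold change of 0.97 ± 0.21 (SE), while other neurons had 253, 290, 301 and 291. The AgRP-Gq;POMC-Gi libraries were both near the level of other neurons and the controls below it. *Pdgfc*, a platelet-derived growth factor, was at 76.4, 96.2, 204 and 158 CPM (1.07 ± 0.25), *Il1rapl2* at 205, 239, 408 and 334 (0.75 ± 0.21) and *Mtmr11* at 8.73, 14.2, 37.4 and 42.1 (1.89 ± 0.49). *Gm13684*, at 6.55, 10.7, 23.8 and 79.6 CPM (2.88 ± 0.58), had 68 of its 81 UMIs in AgRP-Gq;POMC-Gi 2, without which its log2 fold change was 1.54.

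*Tsix*, antisense to *Xist*, was at 301, 114, 84.9 and 0 CPM (-3.13 ± 0.68) and was read in 36, 9, 8 and 0 nuclei, beside 36, 10, 11 and 0 with *Xist*. Its log2 fold change was -1.30 without AgRP-Gq;POMC-Gi 2 and -9.85 without AgRP-Gq;POMC-Gi 1. *Cpne4*, a copine, was at 56.8, 46.3, 17.0 and 19.9 CPM (-1.44 ± 0.39) and *Hadhb*, an enzyme of mitochondrial fatty acid oxidation, at 30.6, 24.9, 6.79 and 5.85 (-2.16 ± 0.57). *Adamtsl1* was at 24.0, 110, 13.6 and 8.19 CPM (-2.58 ± 0.62) with 15 of the 31 UMIs of control 2 in 1 nucleus, and at -1.28 without that library. *Plcl1* was at 74.2, 67.7, 3.40 and 28.1 CPM (-1.74 ± 0.41), with 17 of the 34 UMIs of control 1 and 16 of the 19 of control 2 in 1 nucleus each. The latter is the nucleus of control 2 with neither *Kcnh8* nor *Maf*. Without AgRP-Gq;POMC-Gi 2 its log2 fold change was -4.22 and it was called (edgeR, adjusted p = 0.00499). Single nuclei thus held much of the control sums of both genes.

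Within nuclei of 1 sex, compared after the differences between libraries had been seen, the values were as follows. In nuclei with a Y-linked UMI and no *Xist* UMI, control 2 (17 nuclei) stood against AgRP-Gq;POMC-Gi 1 and 2 (18 and 78), with the lone control assumed to vary like the others. *Cep112* was at 136 against 259 and 282 CPM (1.01 ± 0.34), *Pdgfc* at 101 against 157 and 155 (0.63 ± 0.39) and *Cpne4* at 47.3 against 12.0 and 21.1 (-1.27 ± 0.70). In nuclei with *Xist* and no Y-linked UMI, controls (34 and 9 nuclei) stood against 8 nuclei of AgRP-Gq;POMC-Gi 1. There *Cep112* was at 143 and 163 against 425 CPM (1.50 ± 0.47), *Pdgfc* at 72.5 and 117 against 269 (1.65 ± 0.55) and *Cpne4* at 58.5 and 58.3 against 14.2 (-2.01 ± 1.22). None of these 3 was called in either kind of nuclei (edgeR, adjusted p 0.492 to 0.958). Since they were chosen by their p on the same nuclei, and each split leaves 1 library in a group, a kept direction is no sign of stability. Of the other genes, *Plcl1* turned to 6.14 ± 2.43 in the nuclei with a Y-linked UMI, where its 23 UMIs were all in AgRP-Gq;POMC-Gi 2. *Tsix* was not tested there, having no UMI, and was at 306 and 373 against 340 CPM in those with *Xist*. *Adamtsl1* had 28 UMIs in control 2 against 2 and 7 in the former, where it was called against that lone control library (-4.10 ± 0.55, edgeR, adjusted p = 6.77e-10). In the latter its log2 fold change was 0.02 ± 1.15. The remaining 4 genes were not called in either kind (edgeR, adjusted p 0.492 to 0.964), with values given for nuclei with a Y-linked UMI first. *Mtmr11* was at 0.82 ± 0.75 and 1.18 ± 2.45, *Hadhb* at -2.70 ± 1.03 and -0.998 ± 1.41 and *Gm13684* at 2.39 ± 0.82 and 1.67 ± 2.72. *Il1rapl2* was at 0.67 ± 0.32 and 0.60 ± 0.45, and in the former control 2 (177 CPM) was near AgRP-Gq;POMC-Gi 1 (181) and below AgRP-Gq;POMC-Gi 2 (337).

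The immediate early genes (IEGs), which neurons transcribe within minutes of strong activity, had been removed by the authors before clustering, so that they did not shape the cluster. Of their 10 IEGs, 8 were found in at least 5% of the nuclei and tested. Of these 1, *Fos*, had an unadjusted p under 0.05 with edgeR, beside 4.08% of all genes tested. *Fos* (chr12:85473890-85477273, plus strand), a subunit of the transcription factor AP-1, was at 6.55, 3.56, 10.2 and 29.3 CPM, from 3, 1, 3 and 25 UMIs in 3, 1, 2 and 16 nuclei. The groups did not overlap, as for 15.7% of genes in this direction, and most of the difference lay in AgRP-Gq;POMC-Gi 2. Its log2 fold change was 2.08 ± 0.69 (edgeR, adjusted p = 1.00). In other neurons the log2 fold change of *Fos* was 0.31 ± 0.19, and the difference of the 2 changes was 1.73 (edgeR, adjusted p = 0.992).

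*Fosl2*, a second AP-1 gene, was at 4.37, 3.56, 0 and 21.1 CPM and *Nr4a3*, an orphan nuclear receptor, at 10.9, 3.56, 0 and 17.6. *Junb* was at 6.55, 3.56, 3.40 and 16.4 CPM and *Nr4a1* at 56.8, 35.6, 37.4 and 79.6. For all 4, AgRP-Gq;POMC-Gi 2 was the highest library and AgRP-Gq;POMC-Gi 1 was within or below the controls, so the groups overlapped. *Homer1*, a scaffold of glutamate synapses, was at 63.3, 85.5, 67.9 and 91.3, *Btg1* at 63.3, 81.9, 67.9 and 74.9 and *1700016P03Rik* at 19.7, 24.9, 23.8 and 43.3. *Jun*, with 10.9, 7.13, 0 and 0 CPM, and *Gem*, with 1 UMI in all, were in too few nuclei to be tested. Without AgRP-Gq;POMC-Gi 2 the log2 fold changes of *Fosl2*, *Homer1*, *Nr4a3*, *Nr4a1*, *Junb* and *Btg1* turned negative, and that of *Fos* was 0.92 in place of 2.08.

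The IEG score, which combines the p of the IEGs under 0.05 and gives its negative natural logarithm, was 4.96 and rested on *Fos* alone. It was 0 without AgRP-Gq;POMC-Gi 2, 0 without either control library and 11.3 without AgRP-Gq;POMC-Gi 1, so it depended on which libraries were compared. The log2 fold change of *Fos* was 2.66 without control 1 and 1.84 without control 2, where the score was 0 because its unadjusted p was no longer under 0.05. In nuclei with a Y-linked UMI and no *Xist* UMI, *Fos* was at 0 CPM in control 2 and at 18.1 and 27.3 in AgRP-Gq;POMC-Gi 1 and 2 (3 and 22 UMIs). In those with *Xist* and no Y-linked UMI it was at 7.01 and 11.7 CPM in controls (3 and 1 UMIs) and at 0 in AgRP-Gq;POMC-Gi 1. The 2 kinds of nuclei gave opposite orders, on few UMIs, and neither was called. Irrespective of group, 2 of the 3 IEGs in at least 25% of the nuclei were over 2-fold above other neurons, beside 4.74% over all genes. These were *Nr4a1* (52.3 ± 20.5 CPM against 14.6, the second highest cluster) and *Btg1* (72.0 against 22.1), whereas *Homer1* was not. Of the other activity genes 2 of 4 were, *Nrn1*, a neuritin (225 against 55.1), and *Scg2*, a granin (319 against 133).

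**Figure D5:**
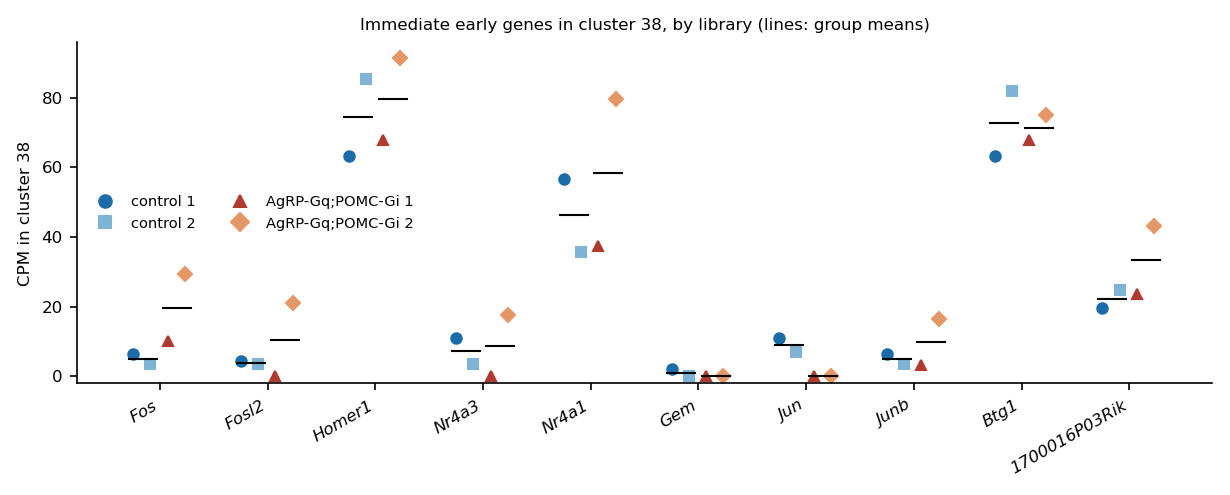
CPM of the 10 IEGs in cluster 38, 1 point per library, with lines for the mean of each group (n = 2 libraries). Fos lies higher in both libraries of AgRP-Gq;POMC-Gi mice than in the controls, at 10.2 and 29.3 against 6.55 and 3.56 CPM, and AgRP-Gq;POMC-Gi 2 is the highest library for Fosl2, Nr4a3, Nr4a1 and Junb.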

How the data were processed

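The authors sorted DRAQ5-stained nuclei, made 10x Genomics 3′ libraries, counted UMIs with Cell Ranger 7.0.0 on GRCm38 and clustered nuclei by the Louvain method on an scVI embedding in Seurat 4.3.0. They deposited UMI counts per gene and barcode for each library and a table of nuclei with UMI and gene counts, mitochondrial percent, cluster and cell type. Their filter (at least 800 UMIs, at least 500 genes, at most 10% mitochondrial UMIs) and a doublet step left 39461 of 44303 barcodes. The table's IEG score and the joined matrix were not used here, and 0 columns were left unmapped. Positions of genes were taken from GENCODE M21 (GRCm38).

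Members and gene lists were chosen with earlier results of these data known. Counts were summed per library over cluster 38 and over other neurons, and groups were compared with edgeR 4.0.16 (R 4.3.3; TMM factors; Benjamini-Hochberg over all genes tested; genes in at least 5% of the cluster's nuclei). Standard errors are the absolute log2 fold change divided by the root of the F statistic. The interaction of group and population had the library as a term. The authors' mixed model program, nebula, was not used here. The IEG score combines, by Fisher's method, the p-values of those IEGs in at least 5% of nuclei and with an unadjusted p under 0.05. The genes named are the 2 of the label, the 20 with the largest and the 10 with the smallest ratio to other neurons, list members in at least 25% of nuclei over 2-fold or under 0.5-fold, transmitter genes, the 10 with the smallest p between groups, all 10 IEGs, the 10 with the largest spread and the 3 most alike clusters. Sex genes, *Ttr*, *Lbx1*, *Tlx3*, *Npy1r*, *Rora*, *Agrp* and the other list members outside this rule were named after their values were seen. Intervals are exact (Clopper-Pearson, 95%).

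The alternatives comprised DESeq2 1.42.0, library sizes with no TMM factors, no filter on genes, filterByExpr, a minimum of 10% of nuclei, the replicate number as a block, each library left out and, for IEGs, a negative binomial mixed model in glmmTMB 1.1.9. For levels they were equal weight per nucleus, thinning to 3000 UMIs, the median of other clusters and each library left out. The split of nuclei by sex genes was added after seeing the data. Scripts ran in Python 3.11.15 with scipy 1.17.1 and were tested on simulated data with 200 changed genes. There the test between groups called 7.0% of genes changed 2-fold and 75.0% of those changed 4-fold. The test against other neurons called 0.0% and 63.5%, so changes of about 2-fold would mostly be missed. Values of some list members are not reported here.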

Additional observations from a re-analysis of the deposited data

How the results depend on the processing

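All statements here rest on 2 libraries a group, with 31 to 85 nuclei each, so single nuclei weigh on low genes and an effect that was not called is not shown to be absent. Genes called between groups were 0 with library size alone, DESeq2, filterByExpr and a minimum of 10% of nuclei, 14 with no filter on genes (among them *Xist*, *Tsix*, *Uty*, *Eif2s3y*, *Kcnip4* and *Foxp2*), and 0 to 8 with a library left out, the 8 without AgRP-Gq;POMC-Gi 1 (*Gm13684*, *Tsix* and *Adamtsl1* among them) and 3 without AgRP-Gq;POMC-Gi 2 (*Plcl1* among them, at -4.22). No pairing of libraries by replicate number is stated, and deviations of equally numbered libraries from their group means correlated at r = 0.0126 over all genes tested. *Ttr*, however, was high in replicate 2 of both groups, and a difference shared by replicate number was not tested. With the replicate number as a block 3 genes, *Adamtsl1*, *Tsix* and *Xist*, were called. In the split added after seeing the data, 21 were called in nuclei with a Y-linked UMI and no *Xist* UMI (*Kcnip4*, *Ttr* and *Adamtsl1* among them), against a single control library of 17 nuclei, and 0 in those with *Xist* and no Y-linked UMI, where the median log2 fold change of all genes was -0.33. The test against other neurons called 10 genes with no filter and 2 to 10 with a library left out. The cause of these changes was not tested. The IEG score was 0 with DESeq2, filterByExpr and in nuclei with *Xist* and no Y-linked UMI, 0 to 11.3 with a library left out, 7.69 with no filter on genes, where *Fosl2* joined *Fos*, 3.72 with the block, 4.13 in the mixed model and 7.18 in nuclei with a Y-linked UMI and no *Xist* UMI, where *Nr4a1* joined *Fos*. The difference in the share of neurons was -0.457 to 1.04 percentage points with a library left out. Log2 fold changes that changed sign with a library left out were those of *Fosl2* (range -3.59 to 2.31), *Nr4a3* (-4.52 to 1.75), *Junb* (-0.572 to 1.77), *Nr4a1* (-0.320 to 0.894), *Homer1* (-0.0508 to 0.416) and *Btg1* (-0.166 to 0.213), the last also with the block (-0.0134). In nuclei with a Y-linked UMI and no *Xist* UMI they were those of *Plcl1* (6.14, with 0 UMIs in control 2), *Homer1* (-0.30) and *Btg1* (-0.27). In nuclei with *Xist* and no Y-linked UMI they were those of *Tsix* (0.0355), *Adamtsl1* (0.0160), *Fos* and *Nr4a3* (-3.73 each, with no UMI in AgRP-Gq;POMC-Gi 1), *Fosl2* (-2.81), *Junb* (-3.33), *Homer1* (-2.14), *Nr4a1* (-0.95) and *1700016P03Rik* (-0.18). Of 497 ratios to other neurons under the alternatives for levels, 441 moved by less than the spread between libraries and 56 by more, with none crossing to the other side of 1. Against the median of the other clusters, *Ebf2* went from 3.99 to 51.2, *Lmx1b* from 3.02 to 18.7, *Rxfp1* from 11.7 to 70.1, *Maf* from 16.8 to 80.1 and *Zfhx3* from 0.331 to 0.959. Of the genes with the largest spread, 7 of 10 were the same at 2000 UMIs.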

Other observations

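Mitochondrial transcripts, which in nuclei come from carried-over cytoplasm, stood among the genes with the smallest p in the test of cluster 38 against other neurons, without being called (edgeR, adjusted p = 0.992). *mt-Atp6*, a subunit of ATP synthase, was at 72.1, 121, 163 and 169 CPM in the cluster in the order used above and at 177, 205, 126 and 159 in other neurons, a difference of 1.19 ± 0.25 between the 2 log2 fold changes. With no filter on genes it was called (1.20, edgeR, adjusted p = 0.0101). *mt-Co3* (0.98 ± 0.21), *mt-Co2* and *mt-Co1*, subunits of cytochrome c oxidase, were placed alike. The log2 fold changes between groups within nuclei of 1 sex each rest on a single library in 1 group. In nuclei with a Y-linked UMI and no *Xist* UMI they were 1.57 for *mt-Co3*, 1.28 for *mt-Co2*, 1.36 for *mt-Co1* and 0.52 for *mt-Atp6*. The median over all genes there was 0.07. In those with *Xist* and no Y-linked UMI they were -0.36, -0.79, -0.59 and -0.06 in the same order. There the median over all genes was -0.33, so *mt-Co3* was near it and *mt-Atp6* above it. The median share of mitochondrial UMIs per nucleus was 0.0523%, 0.0725%, 0.0743% and 0.0926% in the cluster and 0.107%, 0.124%, 0.0659% and 0.0936% in other neurons, so the order of libraries was not the same in the 2 populations.

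Also among the 10 genes with the smallest p in that test were *Bcl2*, an inhibitor of apoptosis, at 225, 203, 122 and 137 CPM (difference of the log2 fold changes -0.83 ± 0.21), and *Dock11*, a guanine nucleotide exchange factor, at 63.3, 60.6, 20.4 and 28.1 CPM (-1.36 ± 0.33). The groups did not overlap for either, as for 32.7% of genes, and neither was called (edgeR, adjusted p = 0.992).

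A few nuclei carried most of the UMIs of some genes. All 33 UMIs of *Foxp2*, a forkhead transcription factor gene, lay in 1 nucleus of AgRP-Gq;POMC-Gi 2. For *Htr2c*, 166 of 270 UMIs (61.5%) lay in 4 nuclei, with 60 in 1 nucleus of control 1. For *Gm32647* 60 of 82 UMIs (73.2%) and for *Cadps2* 20 of 21 (95.2%) lay in 4 nuclei.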
